A study of Mus musculus with 6 samples.

Results

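The MYC family and its MAX network comprised 9 genes here, chosen by name from the 24062 genes of the count table: Myc, Mycn and Mycl, their partner Max, the antagonists Mxd1, Mxd3, Mxd4 and Mxi1, and Mga. All 9 genes were present and were kept among the 16904 genes tested. Their transcripts were counted by RNA-seq in 3 triple knockout (Rb1/p107/Hells TKO) and 3 double knockout (Rb1/p107 DKO) retinae of mice at postnatal day 21, on a background that the labels give as C57BL/6 and the study's methods as C57BL/6N. DKO mice carried Chx10-Cre, floxed Rb1 alleles and germline loss of p107, and TKO mice carried in addition floxed alleles of Hells, which encodes a chromatin remodeler. Rb1 and p107 loss and the Cre were therefore shared by both groups, and the comparison addressed what the added loss of Hells did to the network in RB-deficient retinae. Chx10-Cre acts in retinal progenitors in a mosaic pattern, so whole retinae also held cells that did not recombine. Retinae without Cre were not analysed here, so no level below is set against a normal retina. The labels do not say whether the retinae of a group came from separate mice, and the p-values measure the spread between these retinae only.

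MYC, MYCN and MYCL are basic helix-loop-helix leucine zipper proteins that bind DNA as dimers with MAX, at the E-box CACGTG and related sites, and activate genes of growth and division. MXD1, MXD3, MXD4 and MXI1 compete for MAX at the same sites and recruit the SIN3 corepressor with its histone deacetylases, and MGA joins MAX to a Polycomb complex. In the developing retina MYCN is known for its role in the growth of progenitors, and amplified MYCN drives a subset of human retinoblastomas whose RB1 gene is intact.

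The counts of a retina summed to between 10343907 and 14203098. Normalized Hells counts were 60.8, 68.4 and 83.4 in the TKO libraries and 678, 523 and 395 in the DKO libraries. Values are always listed here as replicates 1, 2 and 3. The Hells level of each library thus followed its label. It also had the same order over the retinae as the summed level of the dividing-cell markers given below. The part of the deletion itself in this difference was not tested. Normalized counts are counts scaled to the mean library size with edgeR's TMM factors. Rb1, which is targeted in both groups, had a log2 fold change (log2FC, TKO over DKO) of 0.34 (edgeR adjusted p = 0.0388). With 1 retina left out Rb1 passed only without TKO replicate 3, and otherwise had edgeR adjusted p-values of 0.0747 to 0.129. Rbl1, the gene of p107, had 0.13 (edgeR adjusted p = 0.839). Rod genes were abundant in every library, with a summed level of the 9 rod markers from 9395 to 55310 CPM (TMM-scaled counts-per-million).

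The MYC genes and Mxd3 were lower in TKO retinae, while Max was modestly higher. A gene passed the test with an adjusted p of at most 0.05 in edgeR's quasi-likelihood test over all 16904 genes. Of the 9 members, 4 passed as lower in TKO retinae (Myc, Mycn, Mycl and Mxd3), and 1 passed as higher (Max). Without adjustment, 8 of the 9 had a p under 0.05, as had 33.1% of all genes tested. Among all genes tested, 9.20% passed as lower and 7.35% as higher. With a log2FC of at least 1 in size and a mean of at least 10 normalized counts also required, the same 4 members were differentially expressed as lower and 0 as higher, against 4.38% and 1.97% of all genes. With 1 retina left out, 1 member passed as lower without replicate 2 of either genotype and 2 passed without DKO replicate 1. The count of higher members was 0 without replicate 1 or 2 of either genotype and 2 without TKO replicate 3. Every TKO value lay below every DKO value in 4 members and above it in 4 more, and 1 member overlapped. Among all genes the groups did not overlap in 20.6% (lower) and 18.0% (higher). In whole retinae, fewer cells of a type and less RNA per cell cannot be told apart, for any of these genes.

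**Figure D1:**
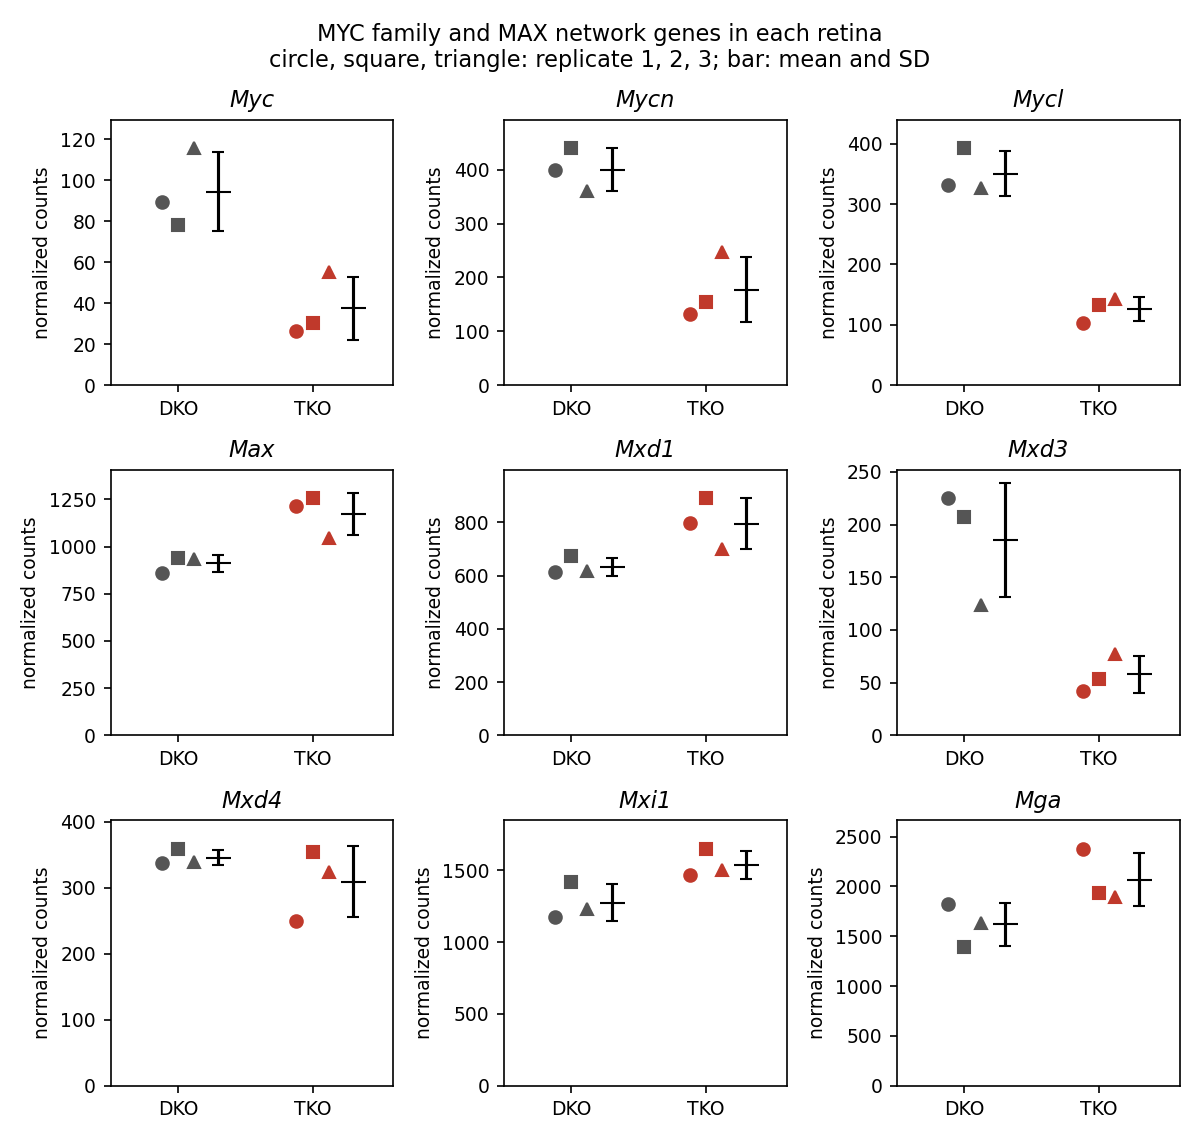
Normalized counts (vertical axes, from 0) of the 9 genes in each DKO (grey) and TKO (red) retina, with replicates 1, 2 and 3 as circle, square and triangle and the mean ± SD as a bar. Myc, Mycn, Mycl and Mxd3 lie lower in all TKO retinae than in any DKO retina, Max, Mxd1, Mxi1 and Mga lie higher, and Mxd4 overlaps.

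Mycn was the most abundant MYC gene per kilobase in both genotypes. Its locus is chr12:12936093-12941914 on the minus strand (GRCm38). The TKO retinae held 132, 154 and 247 normalized Mycn counts, and the DKO retinae 399, 440 and 360. The highest TKO value, in replicate 3, stayed below the lowest DKO value, also in replicate 3. The means were 177 ± 61.0 and 400 ± 40.2 (SD, n = 3 each), a 2.26-fold lower level in TKO with a log2FC of -1.18 (SE 0.219, edgeR adjusted p = 0.0122). Without TKO replicate 2, DKO replicate 1 or DKO replicate 2 the adjusted p from edgeR was 0.0600, 0.0513 and 0.0577, and the log2FC over the 6 fits with 1 retina left out ran from -1.48 to -1.004.

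The promoter window of Mycn is shown because, of the 10 windows found, it was the only one with a word of the E2F type, and E2F is the activity that RB and p107 hold back. Promoter windows run from 250 bases before to 50 bases after a RefSeq start, and 8 of the 9 members had at least 1 (Mxi1 had 3). Myc had no window, so its promoter was not searched and cannot be set beside that of Mycn. Searched were the words TTTCGCGC, TTTGGCGC, TTTCCCGC and TTTGGCGG on both strands. The window of Mycn at chr12:12941787-12942086 of GRCm38.p6, minus strand, is written 5′ to 3′ with the matched words in capitals.
Mycn promoter: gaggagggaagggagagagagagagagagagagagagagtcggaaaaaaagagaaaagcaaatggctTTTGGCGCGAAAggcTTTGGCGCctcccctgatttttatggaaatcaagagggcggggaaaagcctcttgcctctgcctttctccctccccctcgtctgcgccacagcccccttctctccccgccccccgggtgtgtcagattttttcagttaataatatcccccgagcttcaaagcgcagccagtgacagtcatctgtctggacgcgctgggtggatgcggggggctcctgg
The capitals hold TTTGGCGC 183 and 168 bases upstream of the RefSeq start. On the other strand TTTCGCGC lies 179 bases upstream and shares 4 letters with the first. The GENCODE gene begins further upstream, so these distances hold for the RefSeq start only. At least 1 of the 4 words was present in 2.37% of the 32851 promoters of this length. A match is a run of letters only, and binding was not measured here.

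Mycl, first known from lung cancer, was the MYC gene whose call was lost in none of the alternatives run. Its 95% confidence interval, from -1.83 to -1.12, overlapped those of Mycn (-1.68 to -0.67) and Myc (-2.05 to -0.63), and differences among the 3 genes were not tested. Its locus is chr4:122995652-123002485 on the plus strand (GRCm38). Normalized Mycl counts were 103, 133 and 142 in the TKO retinae against 331, 393 and 326 in the DKO retinae. Both groups were tight, and the gap between them was wider than either range. The means were 126 ± 20.4 and 350 ± 37.2 (SD, n = 3 each), 2.78-fold lower in TKO with a log2FC of -1.47 (SE 0.155, edgeR adjusted p = 0.00473). It passed in all 6 fits with 1 retina left out, with adjusted p-values from edgeR of 0.0018 to 0.0345.

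Myc itself had the lowest mean of the 9 genes in both groups. Its locus is chr15:61985391-61990374 on the plus strand (GRCm38). Its raw counts were 23, 29 and 45 in TKO and 95, 89 and 134 in DKO replicates 1, 2 and 3. Scaled, these were 26.4, 30.5 and 55.2 normalized counts in TKO and 89.4, 77.9 and 116 in DKO retinae. Replicate 3 was the highest in both groups, and the groups did not overlap. The means were 37.4 ± 15.6 and 94.3 ± 19.4 (SD, n = 3 each), 2.53-fold lower in TKO with a log2FC of -1.34 (SE 0.308, edgeR adjusted p = 0.0230). Leaving out TKO replicate 1 or 2 put the edgeR adjusted p at 0.0696 or 0.0933, and leaving out DKO replicate 1 or 2 put it at 0.0680 or 0.0597.

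Mxd3 was the MXD gene that was lower, and its fold change was the largest in size of the 9 genes, with an interval from -2.35 to -1.01 that overlapped those of the MYC genes. MXD3 differs from its relatives in being made in dividing cells, where the other MXD genes are known from differentiating cells. Its locus is chr13:55325168-55329823 on the minus strand (GRCm38). Its normalized counts were 42.4, 53.7 and 77.3 in the TKO retinae against 225, 207 and 123 in the DKO retinae. The third DKO retina was well below the other DKO retinae and still above every TKO retina. The means were 57.8 ± 17.8 and 185 ± 54.3 (SD, n = 3 each), 3.21-fold lower in TKO with a log2FC of -1.68 (SE 0.293, edgeR adjusted p = 0.0103). Its adjusted p from edgeR was 0.0527 without TKO replicate 2 and 0.0504 without DKO replicate 2. An exon of Prelid1 on the opposite strand covers 105 bases (4.4%) of its exons, and the strand setting of the counting is not given in the sources used here. Prelid1 had raw counts from 1345 to 2086 with no gap between the groups.

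Max, the shared dimerization partner, was the most abundant of the 9 genes per kilobase and moved the other way. Its locus is chr12:76937269-76962201 on the minus strand (GRCm38). The TKO retinae held 1214, 1256 and 1047 normalized Max counts, and the DKO retinae 861, 938 and 936. TKO replicate 3 was the nearest to the DKO retinae, and the groups did not overlap. The means were 1172 ± 111 and 912 ± 43.7 (SD, n = 3 each), 1.29-fold higher in TKO with a log2FC of 0.36 (SE 0.0911, edgeR adjusted p = 0.0311). Scaling by total counts alone put the median log2FC of all genes at -0.17 in place of -0.011, and Max then had 0.20 (edgeR adjusted p = 0.115). It also lost its call without TKO replicate 1, TKO replicate 2, DKO replicate 1 or DKO replicate 2, at adjusted p-values from edgeR of 0.0992, 0.119, 0.103 and 0.0892.

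The promoter window of Max is shown for the E-box next to its RefSeq start, the word that MAX dimers bind. The window is chr12:76962199-76962498 of GRCm38.p6, minus strand, 5′ to 3′, with CACGTG in capitals.
Max promoter: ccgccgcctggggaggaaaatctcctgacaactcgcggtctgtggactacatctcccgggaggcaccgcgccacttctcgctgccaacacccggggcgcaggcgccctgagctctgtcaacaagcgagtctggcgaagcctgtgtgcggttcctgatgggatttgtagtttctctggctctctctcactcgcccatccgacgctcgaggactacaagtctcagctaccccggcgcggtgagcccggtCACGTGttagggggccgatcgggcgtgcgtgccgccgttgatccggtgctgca
The E-box begins 3 bases upstream of the RefSeq start, and the GENCODE gene begins further downstream, so this distance holds for the RefSeq start only. The window of Mxd4 held the same word 219 bases upstream of its RefSeq start, and those of the other members with a window held none. CACGTG, which reads the same on both strands, was present in 7.15% of the 32851 promoters.

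Mxd1, Mxi1 and Mga were somewhat higher in every TKO retina than in any DKO retina, but none of the 3 passed the test. Mxd1 (chr6:86647042-86669161, minus strand) held 797, 890 and 700 normalized counts in the TKO retinae against 613, 673 and 616 in the DKO retinae. Its log2FC was 0.33 with a 95% confidence interval from 0.090 to 0.57 (edgeR adjusted p = 0.0645). Without TKO replicate 3 it passed, at 0.42 (edgeR adjusted p = 0.0222).
Mxi1 (chr19:53310518-53375810, plus strand), the most abundant antagonist, held 1467, 1650 and 1500 normalized counts in the TKO retinae against 1177, 1418 and 1229 in the DKO retinae. The gap between the groups was small beside their ranges, and the log2FC was 0.27 with an interval from 0.056 to 0.49 (edgeR adjusted p = 0.0843). Mga (chr2:119897228-119969581, plus strand) encodes a very large protein with a T-box domain as well as the MAX-binding domain. It held 2378, 1933 and 1892 normalized counts in the TKO retinae against 1823, 1393 and 1637 in the DKO retinae. Replicate 1 was the highest in both groups, and the log2FC was 0.35 with an interval from 0.065 to 0.64 (edgeR adjusted p = 0.0910). These intervals are not adjusted for the number of genes. With total counts only, the log2FC was 0.17 for Mxd1, 0.11 for Mxi1 and 0.19 for Mga.

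Mxd4 was the member whose groups overlapped. At chr5:34173883-34187720 on the minus strand, it held 249, 354 and 324 normalized counts in the TKO retinae against 338, 359 and 339 in the DKO retinae. TKO replicate 1 was the low value, and the other retinae lay close together. The log2FC was -0.16 with an interval from -0.48 to 0.16 (edgeR adjusted p = 0.458), so the fold change of Mxd3 lies outside the interval. A gene on the opposite strand, Gm42846, covers 514 bases (6.1%) of its exons, and Gm10197 likewise covers 194 bases (2.8%) of those of Mxi1.

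**Figure D2:**
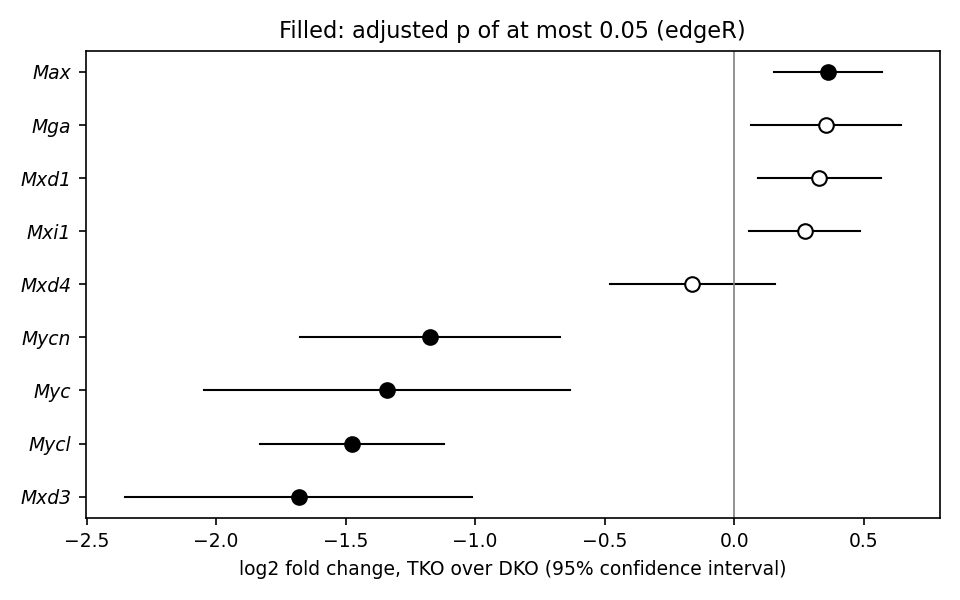
Log2FC of each member, TKO over DKO (horizontal axis), with its 95% confidence interval from edgeR, not adjusted for the number of genes. Filled points passed an adjusted p of 0.05: Mxd3, Mycl, Myc and Mycn lie between -1.68 and -1.18, and Max at 0.36.

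Levels were compared between genes as CPM per kilobase of annotated exon. In DKO retinae the order from the highest level was Max (20.0 ± 0.960), Mxi1 (14.8 ± 1.47), Mycn (9.59 ± 0.964), Mga (8.34 ± 1.11), Mxd1 (7.09 ± 0.379), Mycl (6.86 ± 0.728), Mxd3 (6.18 ± 1.81), Mxd4 (3.22 ± 0.110) and Myc (2.75 ± 0.563), each as mean level ± SD with n = 3. The ranges of neighbours overlapped from Mycn to Mxd3 and between Mxd4 and Myc. Genes further from each other in this order could still be apart. The lowest Mycn level (8.64) lay above the highest of Mxd1 (7.53), Mycl (7.7) and Mxd3 (7.51). In TKO retinae Max (25.8 ± 2.43) and Mxi1 (17.8 ± 1.13) again led in level, and Mga (10.7 ± 1.39) and Mxd1 (8.89 ± 1.07) followed with overlapping ranges. Below these lay Mycn (4.26 ± 1.46), Mxd4 (2.88 ± 0.503), Mycl (2.47 ± 0.399), Mxd3 (1.93 ± 0.594) and Myc (1.09 ± 0.454), and each neighbouring pair of these overlapped in level. Mycn was thus the third by level in DKO and the fifth in TKO retinae.

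The make-up of the network differed more in its MYC share than in its MXD share. Myc, Mycn and Mycl together held 23.9%, 24.9% and 24.3% of the summed level per kilobase of the 9 genes in DKO replicates 1, 2 and 3. In TKO replicates 1, 2 and 3 they held 7.99%, 9.09% and 14%. TKO replicate 3 was the nearest to the DKO retinae, and no TKO share reached a DKO share. Mxd1, Mxd3, Mxd4 and Mxi1 together held 41.6% ± 1.75 of the TKO sum and 39.6% ± 2.01 of the DKO sum (SD, n = 3 each), and their ranges overlapped. This MXD sum joins genes that differed in opposite directions. Mxd3 had a mean level of 1.93 in TKO against 6.18 in DKO retinae. Mxi1 had 17.8 against 14.8 and Mxd1 8.89 against 7.09, though neither passed the test. The share of Max was 34.0% ± 2.51 and 25.4% ± 1.5, and that of Mga 14.1% ± 2.04 and 10.6% ± 1.71. Not divided by length, the MYC share was 5.47% ± 1.74 in TKO against 14.5% ± 0.781 in DKO. Shares add up to a fixed whole, so a lower MYC share raises the others, and they were not tested. The summed level per kilobase was similar, from 73.9 to 78.9 in TKO and from 75.8 to 82.5 in DKO retinae. Summed without division by length, the CPM ran from 473.1 to 510.2 in TKO and from 449.3 to 466.4 in DKO retinae. On that scale every TKO sum was above every DKO sum.

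**Figure D3:**
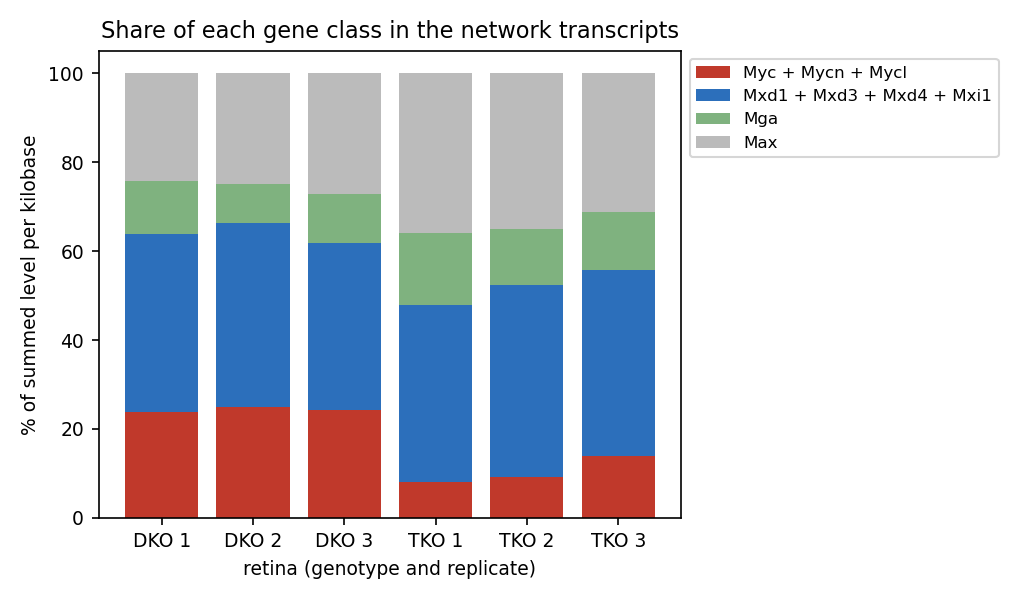
Share (%) of Myc, Mycn and Mycl (red), the 4 MXD genes (blue), Mga (green) and Max (grey) in the summed level per kilobase, for each retina. The red share lies from 23.9% to 24.9% in DKO and from 7.99% to 14% in TKO retinae.

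Marker genes of dividing cells, rods and microglia moved with genotype beside these members. Among all genes tested, 9.20% passed as lower and 7.35% as higher. All 10 dividing-cell markers passed as lower in TKO retinae, with a median log2FC of -2.71. Their summed level was 53.0, 92.2 and 199 CPM in TKO and 1070, 795 and 494 in DKO replicates 1, 2 and 3. All 9 rod markers passed as higher, with summed levels of 55310, 47350 and 27450 in TKO and 9672, 9395 and 17900 in DKO retinae. Replicate 3 of each genotype was thus the nearest to the other genotype in both lists, as it was for Mxd3, Mycn and Max in TKO retinae. Of 8 microglia markers 4 (Cx3cr1, Csf1r, Aif1 and C1qa) passed as lower, with summed levels of 117, 146, 199 and 298, 339, 213 CPM in TKO and DKO replicates 1, 2 and 3. Mxd3 had the same order over the 6 retinae as the dividing-cell level. Mycn and Mycl did not, since their highest values, 440 and 393 normalized counts, were in DKO replicate 2. Myc did not either, since its highest value was in DKO replicate 3, which had the lowest dividing-cell level of the DKO group. That retina also had the highest summed level of 4 gliosis markers, 1441 CPM against 559 and 414 in DKO replicates 1 and 2. The part of dividing cells, rods, microglia or gliosis in the members' differences was not tested.

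Of the other marker lists, 2 of 6 cone (Arr3, Opn1sw), 1 of 6 bipolar (Cabp5), 3 of 7 Muller glia (Glul, Rlbp1, Kcnj10), 1 of 6 RPE (Rpe65), 3 of 7 lens (Cryaa, Crybb2, Cryba1) and 1 of 5 endothelial (Pecam1) markers passed as higher in TKO retinae. As lower passed 1 of 7 Muller glia (Apoe) and 1 of 4 gliosis (Lcn2) markers. The shares of all genes were 7.35% (higher) and 9.20% (lower), and lists this short cannot be set apart from them by 1 gene. None of 6 amacrine, 4 horizontal and 6 ganglion cell markers passed by edgeR, and 2, 2 and 0 of them had an unadjusted p under 0.05. Of 3 blood markers 2 were at 0 counts in every library and the other, Alas2, passed as higher. Lens markers summed to 238 CPM in TKO replicate 2, 44.3 and 37.4 in TKO replicates 1 and 3 and at most 8.33 in DKO retinae, and the part of lens RNA in the members' values was not tested. Without TKO replicate 2 the log2FC was -1.21 for Myc, -1.08 for Mycn, -1.51 for Mycl, -1.63 for Mxd3 and 0.31 for Max. Of these only Mycl passed in that fit (edgeR adjusted p = 0.0345). TKO replicates 1 and 3, which stayed in it, also had higher lens marker levels than any DKO retina. That fit therefore does not remove lens RNA from the comparison.

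**Figure D4:**
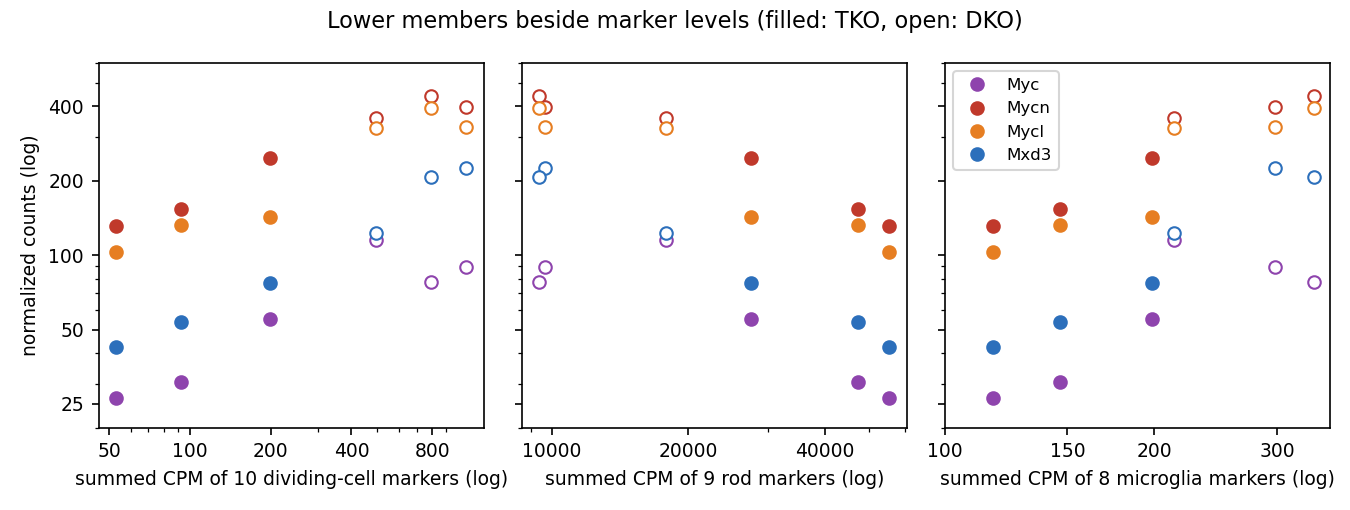
Normalized counts of Myc, Mycn, Mycl and Mxd3 (vertical axis, log) against the summed CPM of 10 dividing-cell, 9 rod and 8 microglia markers (horizontal axes, log), 1 point per gene and retina, filled for TKO and open for DKO. The dividing-cell level runs from 53.0 to 199 in TKO and from 494 to 1070 in DKO retinae, and the 4 genes lie lower in TKO.

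The genes with the profile most like each passing member were sought among 12902 genes with a mean of at least 50 normalized counts, by Pearson correlation of log2 CPM over the 6 retinae. For Mxd3 these were Anp32b, Trim59 and Ssrp1 (r = 0.999, 0.999 and 0.998), for Mycn they were Igfbpl1, Mta1 and Efs (r = 0.998, 0.997 and 0.996), and for Mycl they were Snx7, G3bp1 and Gm16515 (r = 0.996 each). Gpr126, Elmsan1 and Dcaf4 came closest to Myc (r = 0.996 each), and Zfp652, Pigv and Necap1 to Max (r = 0.998, 0.996 and 0.995). Ssrp1 encodes a subunit of the histone chaperone FACT, and Mta1 one of the NuRD corepressor. The points share their libraries, and the retinae form 2 groups, which any gene that differs between them follows.

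MNT, a repressor that also pairs with MAX, and MLX with its glucose-responsive partners MLXIP and MLXIPL form the remaining branch of the network. Of these 4 genes 0 passed by edgeR at the adjusted threshold, too few genes to set apart from the 9.20% and 7.35% of all genes. Mnt averaged 783 ± 40.5 normalized counts in TKO against 750 ± 97.5 in DKO retinae (log2FC 0.062, edgeR adjusted p = 0.720). Mlxip had a log2FC of -0.20 (edgeR adjusted p = 0.317). DESeq2 also passed 0 of the 4, and 1 had an unadjusted p under 0.05 in edgeR, Mlxipl, whose raw counts of 11, 13 and 26 in TKO overlapped the 68, 57 and 24 in DKO retinae (log2FC -1.21, edgeR adjusted p = 0.134). Of the genes that lie next to Myc and Mycn, Pvt1 had -0.26 (edgeR adjusted p = 0.557) and Ddx1 had 0.24 (edgeR adjusted p = 0.0682), so Ddx1, which is often amplified together with MYCN in tumours, had a fold change of the opposite sign to Mycn.

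The lists of partners of the MYC and MXD proteins are given beside the 9.20% (lower) and 7.35% (higher) of all genes that passed. Of 12 MYC cofactors, such as the TRRAP and TIP60 acetyltransferase subunits and the BPTF remodeler, 0 passed by edgeR, with Bptf at 0.31 and Trrap at 0.32 (edgeR adjusted p = 0.0661 and 0.120) and a list median of 0.0034. DESeq2 passed 1 of the 12, as higher, and edgeR with total counts only passed 2, both as lower. In edgeR 4 had an unadjusted p under 0.05. Of 10 genes of the SIN3 corepressor 3 passed as lower, the deacetylase genes Hdac1 at -0.33 (edgeR adjusted p = 0.0372) and Hdac2 at -0.48, and Rbbp7, a histone chaperone, at -0.42 (edgeR adjusted p = 0.0174 and 0.0162), and the median over the list was -0.079. None of the 10 passed by edgeR without replicate 1 or 2 of either genotype. Rbbp4, the SIN3 gene with the largest mean count (not divided by length), had -0.20 (edgeR adjusted p = 0.114). Among 9 partners of MGA in its Polycomb complex, Tfdp1, the E2F dimerization partner, passed as lower at -0.55 (edgeR adjusted p = 0.0103) and Rybp, a RING1-binding subunit, as higher at 0.28 (edgeR adjusted p = 0.0392). Cbx3, which encodes the heterochromatin protein HP1 gamma, had -0.28 (edgeR adjusted p = 0.101), and the list median was -0.098. Without TKO replicate 2 or DKO replicate 2 none of the MGA partners passed by edgeR, and 1 passed, as lower, without TKO replicate 1 or DKO replicate 1. No MGA partner passed as higher with total counts only, with upper quartile scaling or without DKO replicate 3, so Rybp lost its call there. Of 10 genes of MYC protein turnover 2 passed, both as lower, with a list median of 0.11, and without DKO replicate 2 only 1 passed. Aurka, a mitotic kinase that stabilizes MYCN protein, averaged 45.3 ± 17.7 normalized counts in TKO against 191 ± 55.8 in DKO retinae, a log2FC of -2.08 (edgeR adjusted p = 0.0078), and Skp2, a ubiquitin ligase subunit that acts on MYC, had -1.15 (edgeR adjusted p = 0.0103). Huwe1 and Usp7, the turnover genes with the largest mean counts, again not divided by length, had 0.27 and 0.11 (edgeR adjusted p = 0.215 and 0.413).

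Of 30 nucleolar growth genes, which build ribosomes, 2 passed as lower and 1 as higher, and 27 did not pass. These counts are near the 9.20% (lower) and 7.35% (higher) of all genes. The median log2FC of the list was -0.019 beside -0.011 over all genes. Ncl, the gene of nucleolin, averaged 5907 ± 133 normalized counts in TKO against 5997 ± 160 in DKO retinae (log2FC -0.022, edgeR adjusted p = 0.878). Nop58 and Npm1 passed as lower, at -0.50 and -0.46 (edgeR adjusted p = 0.00733 and 0.0142), and Las1l as higher, at 0.33 (edgeR adjusted p = 0.0346). With total counts only, 7 of the 30 passed and all 7 as lower. With a retina left out, 1 passed without replicate 1 or 2 of either genotype and 5 without TKO replicate 3.

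Of 11 cell cycle targets 8 passed as lower and 0 as higher, beside 9.20% and 7.35% of all genes, with a median of -1.17. The difference between this list and the nucleolar one was not tested. Cdk4, the G1 kinase, averaged 753 ± 122 normalized counts in TKO against 1597 ± 266 in DKO retinae, a log2FC of -1.08 (edgeR adjusted p = 0.00700). Cks2, a small CDK subunit, had -2.75 (edgeR adjusted p = 0.00691), and Cul1, with the largest mean count of the list, had -0.10 (edgeR adjusted p = 0.384). E2f2, Ccne1 and Cdc25a of this list are known E2F targets as well, and the dividing-cell markers given above were lower in the same retinae. The part of dividing cells in these values was not tested. The count fell to 3 without TKO replicate 2 or DKO replicate 2 and to 5 without DKO replicate 1.

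Metabolic targets passed in both directions, 5 of 20 as higher and 6 as lower, beside 7.35% and 9.20% of all genes. The list median was -0.094. Hk2, Pkm and Ldha, which encode glycolytic enzymes that photoreceptors also make in quantity, passed as higher. Hk2 averaged 2029 ± 759 normalized counts in TKO against 636 ± 191 in DKO retinae, with a log2FC of 1.67 (edgeR adjusted p = 0.0118), and Pkm and Ldha had 0.69 and 0.70 (edgeR adjusted p = 0.0272 and 0.0327). The 9 rod markers were higher in the same retinae, and their part in this was not tested. Slc19a1, a folate carrier, also passed as higher, at 0.58 (edgeR adjusted p = 0.0375). Odc1, the polyamine synthesis enzyme long used as a MYC target, passed as lower at -0.44 (edgeR adjusted p = 0.0114), as did Nme2, a nucleoside diphosphate kinase, at -0.70 (edgeR adjusted p = 0.0151). The list lost most of its calls with fewer retinae, with 0 left without DKO replicate 2, 1 each without TKO replicate 2 or DKO replicate 1, and 4 without TKO replicate 1.

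Of 7 genes that MYC is known to repress, Cdkn1a, which encodes the CDK inhibitor p21, passed as lower and Ndrg2 as higher. These 7 are too few genes to set apart from the 9.20% (lower) and 7.35% (higher) of all genes. Cdkn1a averaged 259 ± 101 normalized counts in TKO against 705 ± 110 in DKO retinae, with a log2FC of -1.45 (edgeR adjusted p = 0.0112). It was thus lower in the same retinae as the MYC genes, and the median of the 7 genes was 0.0096. Ndrg2 and Ndrg1 had 0.35 and 0.15 (edgeR adjusted p = 0.0324 and 0.251). Of the list, 1 gene passed without TKO replicate 1 and none by edgeR without TKO replicate 2 or DKO replicate 1 or 2.

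**Figure D5:**
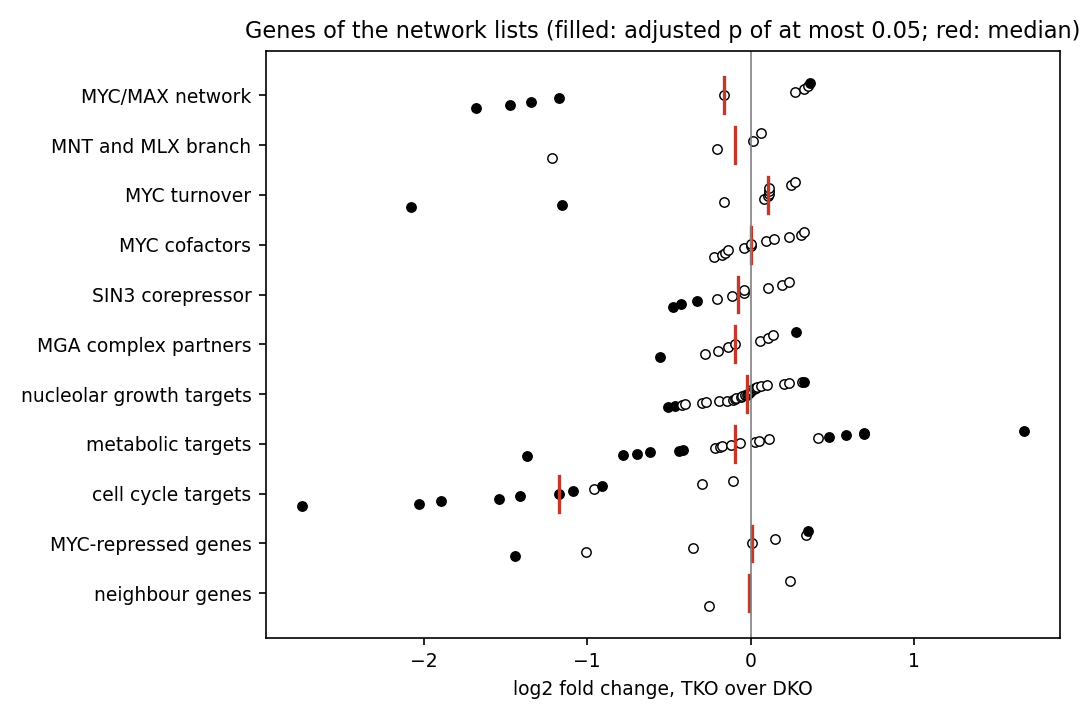
Log2FC, TKO over DKO (horizontal axis), of each gene of the 9 members and 10 related lists, filled where the adjusted p from edgeR was at most 0.05, with the list median in red. The cell cycle targets have a median of -1.17, and the nucleolar growth targets lie around 0.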

How the data were processed

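RNA was taken from whole retinae and libraries were made with a stranded mRNA kit and sequenced as read pairs. By the study's methods the authors aligned reads to GRCm38 with STAR, allowed a few alignments per read, and counted with HTSeq, whereas the submitters' processing notes name TopHat2 and featureCounts. The deposited values are raw counts per gene symbol, 1 column per retina. Reads with several alignments make genes with near-identical copies less certain.

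Groups and replicate numbers came from the sample titles. Genes with a sum under 10 counts were removed. Counts were compared with edgeR 4.0.16 in R 4.3.3 (TMM scaling, quasi-likelihood test, Benjamini-Hochberg adjustment over all 16904 genes, threshold 0.05), where the study used DESeq2. Differential expression also required a log2 fold change of at least 1 in size and a mean count of at least 10, scaled with DESeq2's size factors. SE was taken as |log2FC| over the root of the F statistic. DESeq2 1.42.0, other scalings and filters, robust dispersions, the replicate number as a block and each retina left out were alternatives. The fit was tested on simulated data. Within a genotype, chi-square values of retina pairs were 8.61 to 25.3 times their degrees of freedom, so no library was a repeat of another.

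Coordinates and exon lengths came from GENCODE M21 (GRCm38), and promoters from RefSeq (GRCm38.p6). The members, gene lists, markers and tests were chosen with earlier results of these data known. Besides the members, Hells, Rb1 and Rbl1, the text names of each list the 2 genes with the largest mean and up to 2 per direction with the smallest adjusted p, and the 3 genes most like each passing member. Prelid1, Mlxipl, Hdac1, Slc19a1, E2f2, Ccne1, Cdc25a and the markers were named after their values were seen. A gene of the metabolic list is not reported here by name.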

Additional observations from a re-analysis of the deposited data

How the results depend on the processing

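The 9 members kept their direction under every alternative run. With DESeq2, the other scalings and filters and robust dispersions, Myc, Mycn, Mycl and Mxd3 passed in all 7 fits, and Max in 6 of 7. Precision is limited by 3 retinae per group and, for Myc, by counts of 23 to 134.

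With total counts only, Max (0.20) and Rb1 (0.18) no longer passed, Rbl1 was at -0.036, and no member passed as higher (0). On that scaling 2 MYC cofactors, 7 nucleolar growth targets and 1 MYC-repressed gene passed, all as lower. With DESeq2, 1 MYC cofactor and 1 neighbour gene passed, both as higher, and with upper quartile scaling 1 MGA partner passed, as lower. At an adjusted p of 0.01, 1 member (Mycl) and 421 genes were differentially expressed, and without a minimum fold change 2721 genes, against 1074. Not divided by length, the MYC share was 5.47% in TKO and 14.5% in DKO and the MXD share in DKO 42.0%.

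With the replicate number as a block, Mycl alone passed among the members (1 lower, 0 higher), 1 member and 90 genes were differentially expressed, and Myc (-1.37), Mycn (-1.21), Mxd3 (-1.67), Max (0.36) and Rb1 (0.34) did not pass. With the block 0 genes passed in the lists of turnover, SIN3, MGA partners, nucleolar, metabolic, cell cycle and MYC-repressed genes. Deviations of same-numbered retinae correlated at 0.0464, -0.0442 and -0.14, which gives no sign that equal numbers mark paired retinae.

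With 1 retina left out, members passing as lower ran from 1 to 4, those passing as higher from 0 to 2, differentially expressed members from 1 to 4 and all such genes from 471 to 1500. Log2 fold changes ran from -1.72 to -1.15 (Myc), -1.48 to -1.004 (Mycn), -1.56 to -1.35 (Mycl), -1.94 to -1.504 (Mxd3), 0.31 to 0.44 (Max), 0.24 to 0.42 (Mxd1), 0.27 to 0.41 (Rb1) and -0.15 to 0.36 (Rbl1). Genes passing ran from 1 to 3 (turnover), 0 to 3 (SIN3), 0 to 2 (MGA partners), 1 to 5 (nucleolar), 0 to 12 (metabolic), 3 to 9 (cell cycle), 0 to 3 (MYC-repressed) and 0 to 1 (MNT and MLX). The MYC share ran from 8.54% to 11.5% in TKO and the MXD share from 40.8% to 42.5%. The cause of these changes was not tested.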
